A study of Rattus norvegicus with 24 samples.

Results

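Csnk2b, Prkcb, Tsc22d1 and Galr2 are 4 genes of cell signalling. They were chosen from earlier results of these arrays because their log ratios were high when salt-sensitive (SS) rats on high salt were compared with SS rats on low salt, and lower elsewhere. They were found by gene symbol. Each is listed at 2 probe IDs, 1 of which held values, so that 4 of 1313 named genes with a value in the series, or 4 of 1561 probes, are described here. Each of the 4 probes had a value on all 24 arrays.

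RNA of rat kidney was hybridised to two-colour cDNA arrays in 4 comparisons. Each comparison had 3 replicates, and every replicate was hybridised once in forward and once in swapped dye orientation, which makes 6 arrays. The comparisons set high salt (HS) against low salt (LS) after 2 weeks in strain SS, the same diets in strain 13, strain 13 against SS on LS, and strain 13 against SS on HS. All groups share the SS background as far as the study is known. SS is the Dahl salt-sensitive rat, which develops hypertension on a high-salt diet, and strain 13 is a consomic SS rat in which chromosome 13 was replaced by that of a strain less sensitive to salt. The abbreviations are read from what is known of the study, since the labels do not spell them out, and 5 of the 6 titles of the SS diet arrays name no strain. The series title gives the renal medulla as the tissue and the labels give kidney. The sources used here give no age, sex, salt content of the diets or pooling of animals. They do not say whether replicates were separate animals either, so errors and p-values measure the spread among these RNA samples alone, and that spread may be technical.

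Galr2 encodes one of the G protein-coupled receptors of the neuropeptide galanin, which signals through phospholipase C. Phospholipase C releases diacylglycerol, and diacylglycerol with calcium activates conventional protein kinase C, of which Prkcb encodes the beta isoforms. Csnk2b encodes the regulatory beta subunit of protein kinase CK2, a kinase of broad range that is active without a second messenger. Tsc22d1 encodes a leucine zipper protein first described as a transcript induced by transforming growth factor beta. In the kidney, protein kinase C takes part in vascular tone and in the control of tubular transport, and protein kinase C beta has been studied in renal injury. The genes lie on rat chromosomes 10 (Galr2), 1 (Prkcb), 20 (Csnk2b) and 15 (Tsc22d1) in the RefSeq annotation of assembly GRCr8, so none of the 4 is on chromosome 13.

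All values are deposited log ratios of a base that no source used here states, so they are printed without a fold. A ratio holds no level, so neither the abundance of a transcript nor the tissue of origin can be read from these values. Values are read as HS over LS and as 13 over SS, the likely direction, from the 13 titles that name their channels, only 1 of them among the 12 diet arrays. The alternative is that every sign below turns at once, in which case "higher" and "lower" change places throughout. The arrays held values for 726 to 1402 probes each.

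The promoter windows of 2 of the 4 genes were at hand, Galr2 and Tsc22d1, and none is printed for Csnk2b and Prkcb. They are shown because no others of the 4 were at hand. The log ratios of Galr2 and Tsc22d1 had Pearson's r = 0.97 over 12 RNA pairs, which the choice of the genes fixes in large part. No shared regulation is read from it. RefSeq lists 2 starts for Tsc22d1, and the sources used here do not say which of them the array clone reports. The 250 bases before the start are printed 5′ to 3′ on the plus strand of GRCr8, for Tsc22d1 at its downstream start, with GC boxes (GGGCGG or its complement) and CCAAT boxes in capitals.
Galr2, chr10:102013376-102013625: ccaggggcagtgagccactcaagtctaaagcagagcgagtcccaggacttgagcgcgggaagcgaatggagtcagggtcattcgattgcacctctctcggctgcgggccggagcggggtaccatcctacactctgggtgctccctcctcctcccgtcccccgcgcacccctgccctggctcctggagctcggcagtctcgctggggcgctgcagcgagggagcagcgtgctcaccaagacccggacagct
Tsc22d1, chr15:58256751-58257000: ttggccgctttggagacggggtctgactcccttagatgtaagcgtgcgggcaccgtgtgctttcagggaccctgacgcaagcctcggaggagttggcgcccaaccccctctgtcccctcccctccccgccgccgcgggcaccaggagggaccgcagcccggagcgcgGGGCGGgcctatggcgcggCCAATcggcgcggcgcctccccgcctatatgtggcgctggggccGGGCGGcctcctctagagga

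The windows are rich in G and C, at 66.8% for Galr2 and 72.0% for Tsc22d1 against a median of 51.2% over 33469 such windows. The Tsc22d1 window held 2 GC boxes, found in 30.5% of all windows, and 1 CCAAT box, found in 34%. It also held 1 match each of TGACG, a partial cyclic AMP response element (18.2% of windows), and of CAGAC, a short SMAD element (42.9%). Both strands were searched, and none of the matches overlapped. Neither TATAAA (12.9%), CACGTG (5.59%), TGANTCA (6.34%) nor the CArG box (1.5%) was found in it. The Galr2 window, like that of the upstream start of Tsc22d1 (78.4% G and C), held no match to any of these motifs, so the windows share a high content of G and C and none of the searched letters.

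In SS, all 4 genes were higher on HS than on LS. Because this comparison chose them, the values are a description and carry no test. Galr2, the receptor, had log ratios of 0.605, 0.66 and 0.785 in replicates 1 to 3, a mean of 0.68 ± 0.09 (SD, n = 3). The 6 arrays ran from 0.21 to 1.00, and none was below 0. Prkcb, the kinase that acts downstream of phospholipase C, had 0.55, 0.635 and 0.635, a mean of 0.61 ± 0.05 (SD, n = 3). Its 6 arrays ran from 0.23 to 0.87, and the replicates lay closer together than those of the other 3 genes.

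Csnk2b, the CK2 subunit, had 0.395 in replicate 1 and 0.86 and 0.915 in replicates 2 and 3, a mean of 0.72 ± 0.29 (SD, n = 3). It had the highest mean of the 4 and also the widest spread, with replicate 1 at less than its other replicates and arrays from 0.18 to 0.98. Tsc22d1, the leucine zipper gene, had 0.42, 0.42 and 0.58, a mean of 0.47 ± 0.09 (SD, n = 3), with arrays from 0.28 to 0.60. Among the 1310 probes tested, counted from the highest, Csnk2b stood at place 5, Galr2 at 10, Prkcb at 15 and Tsc22d1 at 31. All 6 arrays were above 0 for each of the 4 genes, as for 7.01% of the 785 probes with a value on all of them.

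In the limma fit across all probes, 4 of the 4 genes passed an adjusted p of 0.05 in SS, where 2.82% of the probes tested passed in either direction and 1.83% as higher. Since the genes were chosen from this comparison, nothing is read from that count. It was 4 without replicate 1, where 57 probes passed in all. It was 0 without replicate 2, 0 without replicate 3 and 0 when the 3 values of a gene were fitted without the other comparisons. In each of these settings 0 probes passed, so a count of 0 there says nothing of the 4 genes in particular. It was 4 without the one SS array with a conflicting title, which starts with strain 13 but names SS in its channels, and 60 probes passed then.

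**Figure D1:**
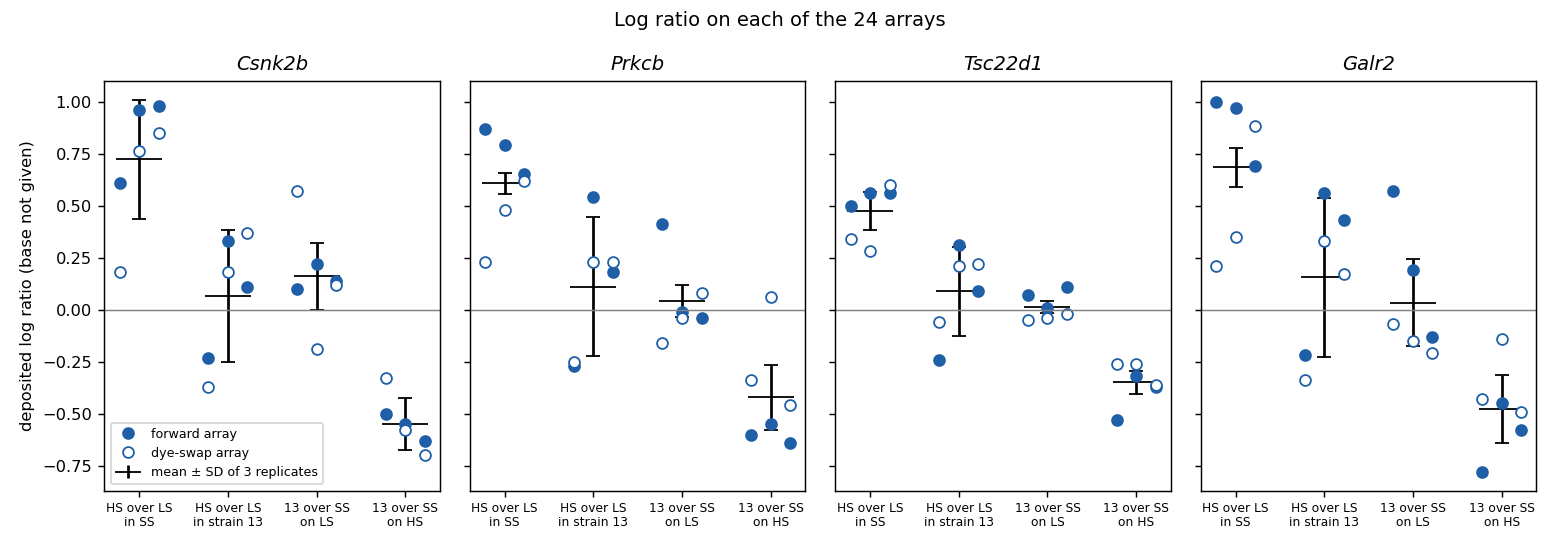
Deposited log ratio (vertical axis, base not given) of each gene on each array, by comparison (horizontal axis). Filled points are forward arrays, open points are dye-swap arrays, replicates 1 to 3 run from left to right within a comparison, and the bars are the mean ± SD of 3 replicates. All 6 arrays of the SS diet comparison lie above 0 for each gene, while in strain 13 replicate 1 lies below 0 and replicates 2 and 3 above.

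In strain 13 the same diet comparison gave means near 0 that hide a split between replicates. Galr2 had -0.28 in replicate 1 and 0.445 and 0.30 in replicates 2 and 3, a mean of 0.16 ± 0.38 (SD, n = 3). Prkcb had -0.26, 0.385 and 0.205, a mean of 0.11 ± 0.33 (SD, n = 3). For each of the 4 genes replicate 1 was below 0 on both of its arrays, and replicates 2 and 3 were above 0 on all of theirs. Csnk2b had -0.30, 0.255 and 0.24, a mean of 0.07 ± 0.32 (SD, n = 3). Tsc22d1 had -0.15, 0.26 and 0.155, a mean of 0.09 ± 0.21 (SD, n = 3).

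Replicate 1 decides these means. Without it they were 0.37 for Galr2, 0.30 for Prkcb, 0.25 for Csnk2b and 0.21 for Tsc22d1, whereas without replicate 2 or replicate 3 they ran from -0.03 to 0.08 over the 4 genes. The word "only" in a rise restricted to SS therefore rests on that replicate, and replicates 2 and 3 of strain 13 lay on the same side of 0 as SS. For each of the 4 genes every replicate of SS was still above every replicate of strain 13, as for 6.68% of the probes with a value in all of them. The nearest pair of values was 0.395 in SS and 0.255 in strain 13, for Csnk2b. None of the 4 passed in strain 13, where 0.00% of 1287 probes passed (limma, lowest adjusted p over all probes 0.324, with 119 probes at an unadjusted p under 0.05). As no probe passed and the choice used these values, nothing is read from that for the 4 genes.

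Among rats kept on LS for the same 2 weeks, the strains were compared directly. Because the genes were chosen for a rise restricted to SS on HS, small values here were part of the choice, so they too are a description without a test. Galr2 had 0.25, 0.02 and -0.17 (strain 13 over SS), a mean of 0.03 ± 0.21 (SD, n = 3). Its replicates lay on both sides of 0. Prkcb had 0.125, -0.025 and 0.02, a mean of 0.04 ± 0.08 (SD, n = 3). Tsc22d1 had 0.01, -0.015 and 0.045, a mean of 0.01 ± 0.03 (SD, n = 3), the narrowest spread of the 4 genes in any comparison.

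Csnk2b was the one gene above 0 in all 3 replicates on LS, at 0.335, 0.015 and 0.13, as were 26.5% of the probes with a value in all 3. Its mean was 0.16 ± 0.16 (SD, n = 3), and its arrays ran from -0.19 to 0.57. None of the 4 passed on LS, where 0.00% of 1229 probes passed (limma, lowest adjusted p = 0.0904, with 268 probes at an unadjusted p under 0.05). As no probe passed and small values were part of the choice, nothing is read from that for the 4 genes. The forward array of replicate 1, which held the fewest values of all arrays, had 0.57 for Galr2 and 0.41 for Prkcb. Without it, an alternative added after seeing the data, the means were -0.07 for Galr2, -0.06 for Prkcb, -0.01 for Tsc22d1 and 0.24 for Csnk2b.

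On HS all 4 genes were lower in strain 13 than in SS. SS RNA on HS is on these arrays too, so these values share their source with the SS diet comparison and are a description. The channel names give the same SS extract on HS to both comparisons in replicate 3, and no names are given for the SS diet arrays of replicates 1 and 2. Csnk2b had -0.415, -0.565 and -0.665, a mean of -0.55 ± 0.13 (SD, n = 3). Galr2 had -0.605, -0.295 and -0.535, a mean of -0.48 ± 0.16 (SD, n = 3). All 6 arrays of both genes were below 0, as for 4.82% of the 1057 probes with a value on all of them.

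Prkcb had -0.47, -0.245 and -0.55 on HS, a mean of -0.42 ± 0.16 (SD, n = 3). It was the one gene with an array above 0, the dye-swap array of replicate 2 at 0.06. Tsc22d1 had -0.395, -0.29 and -0.365, a mean of -0.35 ± 0.05 (SD, n = 3), with all 6 arrays between -0.53 and -0.26. Counted from the lowest of 1350 probes, Csnk2b stood at place 22, Galr2 at 34, Prkcb at 51 and Tsc22d1 at 93. The 4 genes stood at less extreme places here than in the SS diet comparison.

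In the limma fit 4 of the 4 passed as lower on HS, where 6.00% of the probes passed in either direction and 2.37% as lower, and nothing is read from that count for genes chosen on SS rats on HS. It was 0 without replicate 1 and 0 with the 3 values fitted alone, where 0 probes passed at all, so these counts say nothing of the 4 genes in particular. It was also 0 without replicate 2 (12 probes passed in all), without replicate 3 (19) and with the arrays scaled to equal spread (13). It was 1, Tsc22d1, with the replicate number as a block (44 probes), and 2, Tsc22d1 and Csnk2b, on the dye-swap arrays alone (411 probes). The means stayed below 0 in each of these settings.

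The strain difference in the diet ratio can be had from separate arrays, by subtracting the SS diet ratio from the strain 13 diet ratio, or by subtracting the LS strain ratio from the HS strain ratio. Replicates are set side by side by number, which the channel names give as the numbers of the RNA extracts on the strain arrays and on 1 diet array. For Csnk2b the diet arrays gave -0.695, -0.605 and -0.675 in replicates 1 to 3 and the strain arrays -0.75, -0.58 and -0.795. These are means of -0.66 ± 0.05 and -0.71 ± 0.11 (SD, n = 3), so that the 6 differences of Csnk2b lay close together. The differences of Galr2 and Prkcb were more spread. Galr2 had -0.885, -0.215 and -0.485 on the diet arrays and -0.855, -0.315 and -0.365 on the strain arrays. Prkcb had -0.81, -0.25 and -0.43 against -0.595, -0.22 and -0.57.

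Tsc22d1 had -0.57, -0.16 and -0.425 on the diet arrays against -0.405, -0.275 and -0.41 on the strain arrays. The value of replicate 2 was the one nearest 0 by either set of arrays for each of the 4 genes. All 24 values were below 0. The means of the diet arrays and of the strain arrays were -0.53 and -0.51 for Galr2, -0.50 and -0.46 for Prkcb, and -0.39 and -0.36 for Tsc22d1. The sets of arrays were hybridised separately but use the same kinds of RNA, by name the same extracts of SS in replicate 3, so the closeness of their means is no independent replication, and no test is given because the genes were chosen for this pattern.

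**Figure D2:**
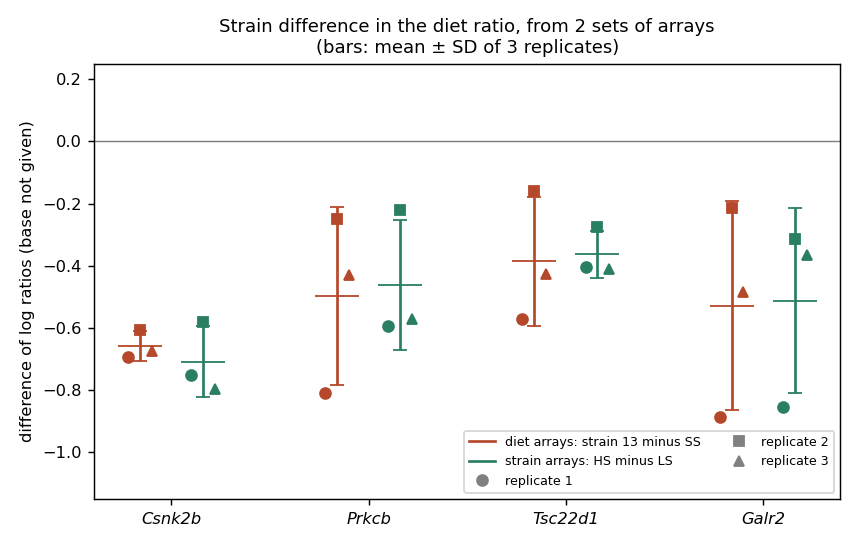
Strain difference in the diet ratio (vertical axis, difference of log ratios, base not given) for each gene (horizontal axis), from the diet arrays (strain 13 minus SS) and from the strain arrays (HS minus LS). Symbols are replicates and bars the mean ± SD of 3 replicates. Csnk2b lies between -0.795 and -0.58 in every replicate, while Galr2 spreads from -0.885 to -0.215.

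The 4 genes had similar log ratios from RNA pair to RNA pair, which their choice for one profile over the 4 comparisons already fixes in large part. Likeness was measured as Pearson's r over the 12 RNA pairs (each the mean of a forward and a dye-swap array), which fall into 4 comparisons and share RNAs, so r is a description without a p. Prkcb and Galr2 had r = 0.984, and each was the most like the other among 862 named probes with a value in all 12 pairs. Prkcb and Tsc22d1 had r = 0.983, and Tsc22d1 and Galr2, the pair whose promoter windows are printed, 0.97. Csnk2b stood a little apart, with 0.949 to Prkcb, 0.946 to Tsc22d1 and 0.935 to Galr2. For orientation, and not as a contrast with genes chosen for one profile, over all pairs of the 862 probes the median r was -0.0015 and the 95th percentile 0.634.

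The likeness was also measured within comparisons. When the mean of its comparison was subtracted from each value, r was 0.914 for Prkcb and Galr2, 0.887 for Prkcb and Tsc22d1, and 0.832 for Tsc22d1 and Galr2. For Csnk2b it ran from 0.697 to 0.73, and the 95th percentile over all pairs of probes was 0.679, again given for orientation. This likeness was not particular to the 4 genes. Of the genes described below, Clu had 0.864 and Tnnt2 0.862 with Csnk2b, and Ica1 0.941 with Galr2, each above any of the 4 with that gene. In strain 13 replicate 1 was the lowest and replicate 2 the highest for each of the 4 genes. On LS the replicates of the genes fell in different orders, with Prkcb highest in replicate 1 and Tsc22d1 in replicate 3.

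Genes outside the 4 shared the pattern as well. Tnnt2, which encodes cardiac troponin T, had r = 0.989 with Tsc22d1, 0.977 with Prkcb, 0.971 with Galr2 and 0.961 with Csnk2b. Its log ratio was 0.57 in the SS diet comparison, 0.14 in strain 13, 0.01 on LS and -0.48 on HS. Tmsb10, a thymosin that binds actin monomers, was among the 5 most alike for Csnk2b (0.959), Prkcb (0.955) and Tsc22d1 (0.964). Ica1, a protein of secretory vesicles, was so for Galr2 (0.975) and Prkcb (0.962).

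For Csnk2b the genes most alike were, beside Tnnt2 and Tmsb10, those of the matrix and of secreted proteins. Col1a1, a chain of fibrillar collagen, and Mgp, an inhibitor of calcification, had r = 0.959 each, and Clu, a secreted chaperone, 0.958. Clu was also among those of Tsc22d1 (0.967). At the other end, Egf, the growth factor made in the distal tubule, had r = -0.949 with Csnk2b. Plpp1, a lipid phosphatase, had -0.957 with Prkcb and -0.963 with Tsc22d1, and Pccb, a subunit of propionyl-CoA carboxylase, -0.95 with Galr2.

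**Figure D3:**
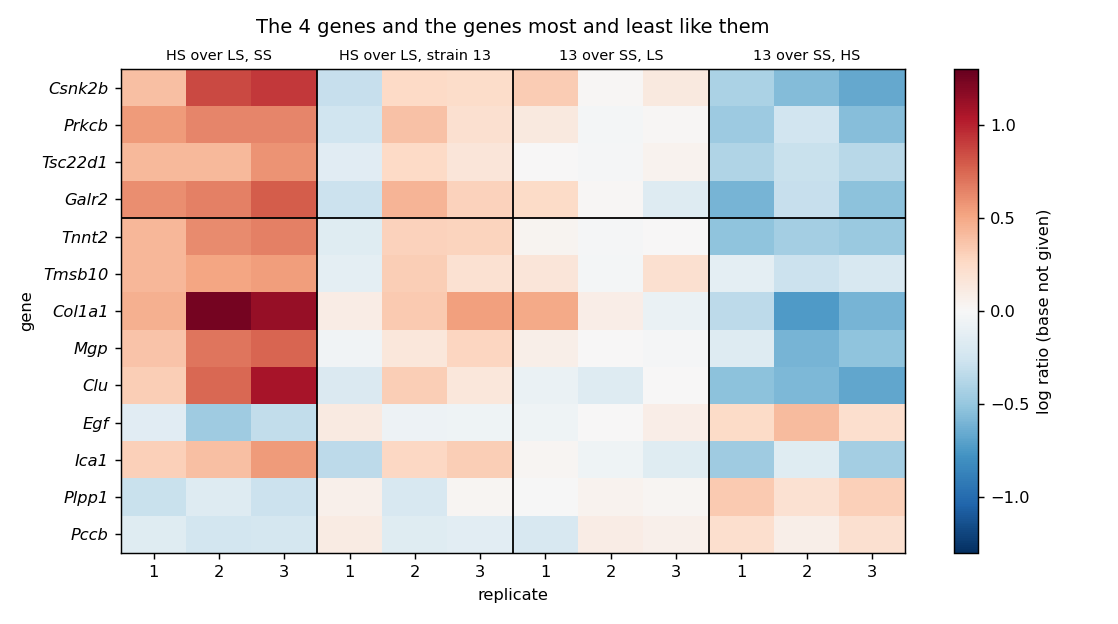
Log ratio (colour, base not given) in each of the 12 RNA pairs (columns, replicates 1 to 3 of the 4 comparisons) for the 4 genes above the line and the genes most and least like them below it. Replicate 1 of the strain 13 diet comparison is below 0 for the 4 genes and for Tnnt2, Tmsb10, Mgp, Clu and Ica1, while Col1a1 has 0.095 there.

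Markers of several cell types moved beside the 4 genes, and in whole tissue fewer cells of a type and less RNA per cell cannot be told apart. In the SS diet comparison 12 of 13 fibroblast and matrix markers were above 0 (median 0.37, with 0.20, 0.425 and 0.485 in replicates 1 to 3). Of the 13, 6 passed as higher and 0 as lower, where 1.83% of all probes passed as higher and the median of all was -0.0067. The 6 were Col1a1, Col3a1, Col2a1, Vim, Timp1 and Mgp. All 5 genes measured of the smooth and skeletal muscle list were above 0 (median 0.49) and 2 passed, Tagln and Tnnt2. As Tnnt2 encodes cardiac troponin T, its call is not read as one of smooth or skeletal muscle. Acta2, the smooth muscle actin, was at 0.09 and did not pass. Of 5 leukocyte markers 4 were above 0 (median 0.22) and 0 passed, and the 1 nerve marker measured was at 0.21 and did not pass. The 3 markers of the thick ascending limb and distal tubule and the 5 of the collecting duct were all below 0 (medians -0.25 and -0.11), and 0 passed. Of 13 proximal tubule markers 10 were below 0 and 0 passed, with a median of 0.315 in replicate 1 and of -0.305 and -0.315 in replicates 2 and 3.

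In the strain comparison on HS 6.00% of all probes passed in either direction and 2.37% as lower. There 11 of 13 fibroblast and matrix markers were below 0 (median -0.20) and 3 passed as lower, Col2a1, Vim and Mgp. Col1a1, Col3a1 and Timp1 did not pass (limma adjusted p = 0.0528, 0.0505 and 0.0887). All 6 genes of the muscle list were below 0 (median -0.26). The 1 that passed was Tnnt2, and Acta2 was at -0.01. The 5 collecting duct markers were above 0 (median 0.35) and 3 passed as higher, and of the 3 thick ascending limb and distal tubule markers 1 passed as higher. Of 12 proximal tubule markers 11 were below 0 (median -0.41) and 2 passed as lower. Of 5 leukocyte markers 1 passed as lower, and Kdr, the only endothelial marker measured, passed as higher. These calls, like all others on HS, are lost without replicate 1, and those in SS without replicate 2 or replicate 3. Where the means of the 4 genes were nearer 0, some lists were shifted as well, and no marker passed, as no probe did. On LS 12 of 13 proximal tubule markers were below 0 (median -0.295) and all 5 of the collecting duct above 0 (median 0.23). The matrix list had 6 above and 6 below 0. For diet in strain 13, 11 of 13 proximal tubule markers were below 0 (median -0.31) and all 12 matrix markers above (median 0.16). In replicate 1 of the strain 13 diet comparison, in which the 4 genes were below 0, the lists lay on both sides of 0. Their medians were 0.23 for the matrix, 0.11 for the thick ascending limb and distal tubule and 0.085 for the leukocyte markers. They were -0.0025 for the muscle, -0.055 for the collecting duct and -0.16 for the proximal tubule markers. Within the matrix list Col1a1 was at 0.095 and Mgp at -0.045, and Tnnt2 of the muscle list was at -0.155. The ratios do not show which of these markers are absent, and the part of cell composition in the values of the 4 genes was not tested.

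The other genes of the signalling pathways passed about as often as probes in general. The lists hold genes by pathway, not by how they moved, and leave out the 4 genes. Of 54 such genes tested in the SS diet comparison 1 passed as higher and 1 as lower, where 2.82% of all probes passed, and their median was -0.03 beside -0.0067 over all probes. In strain 13 and on LS 0 of 55 passed, and on HS 2 passed as higher and 1 as lower, where 6.00% of all probes passed, with a median of 0.08. The calls in SS are lost without replicate 2 or replicate 3, those on HS without replicate 1, and both when the comparison is fitted alone.

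The receptors gave the calls in SS. Of 8 other peptide and amine receptors tested, Glp1r, the receptor of glucagon-like peptide 1, rose on HS in SS (0.47 ± 0.07, SD, n = 3; limma adjusted p = 0.0238). It was also above 0 in the strain 13 diet comparison (0.19 ± 0.02, SD, n = 3; limma adjusted p = 0.568), where no probe passed. It had 0.07 in the strain comparison on HS and did not pass there. Gcgr, the glucagon receptor, fell in SS (-0.43 ± 0.19, SD, n = 3; limma adjusted p = 0.0238) and was higher in strain 13 on HS (0.52 ± 0.15, SD, n = 3; limma adjusted p = 0.0122). Galanin and the other galanin receptors were not among the genes tested in any comparison, so Galr2 stands without its ligand.

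Upstream of protein kinase C, 0 of 7 genes passed in SS, with Itpr3, an inositol trisphosphate receptor, the highest at 0.31 ± 0.23 and Plcb4, a phospholipase C beta, the lowest at -0.22 ± 0.02 (SD, n = 3). On HS Plcb4 was higher in strain 13 (0.49 ± 0.25, SD, n = 3; limma adjusted p = 0.0236), on the opposite side from Prkcb and Galr2. Itpr2, another inositol trisphosphate receptor, was lower there at -0.58 with values in 2 replicates (limma adjusted p = 0.032). Of the other protein kinase C genes only Prkcz, an atypical isoform that does not respond to diacylglycerol, was tested, at -0.15 ± 0.06 in SS (SD, n = 3; limma adjusted p = 0.39). cDNA probes can bind transcripts of related isoforms, and whether the Prkcb clone did so was not tested.

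**Figure D4:**
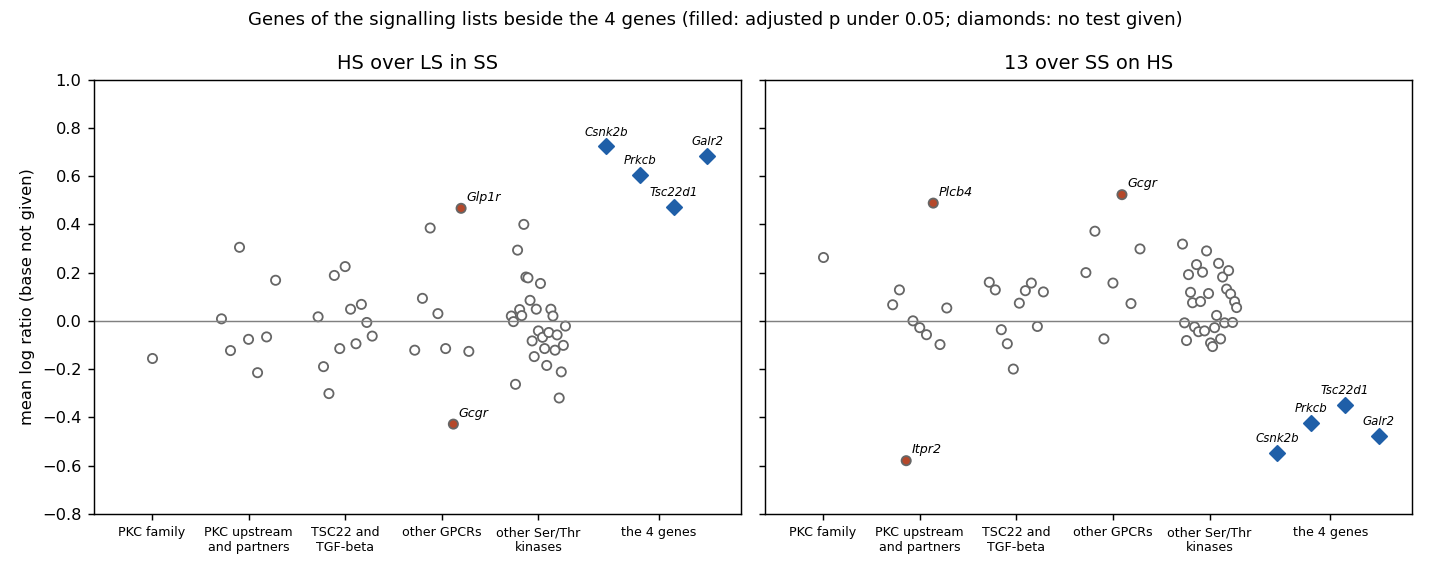
Mean log ratio (vertical axis, base not given) of the genes of 5 signalling lists (horizontal axis) beside the 4 genes, in the SS diet comparison and in the strain comparison on HS. Filled circles passed an adjusted p of 0.05 in the limma fit, open circles did not, and diamonds are the 4 genes, which carry no test here; Glp1r and Gcgr are the filled circles in SS.

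The transforming growth factor beta list, to which Tsc22d1 belongs as a target, had 0 of 11 genes passing in SS, with a median of -0.0067. Dcn, a proteoglycan that binds the growth factor and is also among the matrix markers, was its highest at 0.23 ± 0.22, and Bmp4, a ligand of the family, its lowest at -0.30 ± 0.14 (SD, n = 3; limma adjusted p = 0.0917). On HS 0 of 10 passed. Among other serine/threonine kinases 0 of 27 passed in SS, from Rps6kb1, the ribosomal S6 kinase, at -0.32 ± 0.37 to Cdk1, the mitotic kinase, at 0.40 ± 0.09 (SD, n = 3; limma adjusted p = 0.0502). Cdk1 had 0.36 ± 0.23 in strain 13. The catalytic subunits of CK2 were not tested, so Csnk2b stands without its partners, and of the CK1 genes Csnk1a1 was tested on LS alone (0.12, 2 replicates).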

How the data were processed

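The deposited values, per the file itself, are log ratios of the 2 channels of each array. The sources used here do not give the log base, nor how the authors corrected background, filtered spots or normalized. Array means lay within 0.0049 of 0, and the values were used as deposited. The forward and dye-swap arrays of a replicate were averaged, giving 12 RNA pairs. limma 3.58.1 in R 4.3.3 (lmFit, eBayes) fitted 4 group means to all probes, and a probe was tested with at least 2 of 3 replicates, two-sided, with Benjamini-Hochberg adjustment over all probes tested at 0.05. The script was tested on simulated data. As a check of relative signs, the strain difference in the diet ratio from the diet arrays correlated with that from the strain arrays at r = 0.647 over 1006 probes, against -0.234 to 0.234 with any one comparison turned. Symbols came from the platform annotation, updated with RefSeq (GRCr8) for 1311 of 1561 probes. A gene with several probes was read at the one with most values. Deviations of same-numbered replicates from their comparison means correlated at 0.21, 0.17 and 0.21 between the diet comparisons, and at -0.63, -0.56 and -0.29 between SS diet arrays and HS strain arrays, which hold SS RNA on HS on opposite sides of the ratio. Each of the other 4 pairs of comparisons gave both signs. The 12 RNA pairs were fitted as independent, and the replicate number as a block is an alternative. A test of the 4 genes on LS was planned and is not used, since small values there were part of their choice.

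The genes and lists were chosen with earlier results of these data known. Named are the 4 genes, list genes past the threshold, the highest and lowest of each list in the SS diet comparison, and per gene the 5 most and the 1 least alike. Alternatives were leaving out each replicate or an array, scaling, centring, 1 dye orientation, the replicate block, other filters and separate fits. Promoter sequences are from RefSeq, GRCr8.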

Additional observations from a re-analysis of the deposited data

Results flagged for a closer look

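Csnk2b was above 0 in all 3 replicates of the strain comparison on LS (mean 0.16) and below 0 in all 3 on HS (mean -0.55). On LS 1 of its arrays was at -0.19 and 1 replicate at 0.015, so no order of the strains on LS is read from it. The difference between diets was not tested, since the gene was chosen with its value on HS known. The highest and lowest of the 6 arrays were also examined for each of the 4 genes in each comparison, 16 sets in all, and none stood apart from the other 5.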

How the results depend on the processing

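Over 120 recomputed means of the 4 genes, 98 kept their sign and, outside LS, moved by less than the replicate spread, 8 moved further and 14 changed sign, 11 of these on LS and 3 in strain 13, where no value passed. In strain 13 the changes were Csnk2b to -0.03 and -0.0225 without replicate 2 and replicate 3, and Prkcb to -0.0275 without replicate 2. On forward arrays alone the SS diet means were 0.77 for Prkcb and 0.89 for Galr2, and on dye-swap arrays alone 0.44 and 0.48; on HS they were -0.60 and -0.25 for Prkcb and -0.41 and -0.29 for Tsc22d1. On LS the dye-swap arrays gave -0.04 for Prkcb, -0.0367 for Tsc22d1 and -0.14 for Galr2. Leaving out 1 replicate gave -0.0025 to 0.0725 for Prkcb, -0.0025 to 0.0275 for Tsc22d1 and -0.075 to 0.135 for Galr2. Centring gave -0.0083 for Tsc22d1, equal spread -0.0031 for Galr2. Without the array with the fewest values (added after seeing the data) it was -0.055 for Prkcb, -0.0067 for Tsc22d1 and -0.0733 for Galr2.

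The count of probes that passed in the SS diet comparison (37) was 0 to 57 when 1 replicate was left out, 118 on forward and 62 on dye-swap arrays, 60 without the array of conflicting title and 0 fitted alone. In strain 13 (0) it was 15 on forward and 3 on dye-swap arrays. On LS (0) it was 0 to 1 without 1 replicate, 23 with equal spread, 70 on forward and 51 on dye-swap arrays. On HS (81, 49 higher and 32 lower) it was 0 to 19 without 1 replicate, 13 with equal spread (10 higher, 3 lower), 127 on forward and 411 on dye-swap arrays, 0 fitted alone and 44 with the replicate block (32 higher, 12 lower). The block gave 31 in the SS diet comparison and 0 in strain 13 and on LS. A single orientation does not cancel dye effects. The causes of these shifts were not tested. Fewer samples enter when a replicate is left out or a comparison is fitted alone, and the part of that in the shifts was not tested either. The number of arrays limits the precision.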

Other observations

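The dye orientation of the arrays touched the 4 genes unequally. The forward array exceeded its dye swap in 9 of 12 RNA pairs for Csnk2b, 8 for Galr2, and 6 each for Prkcb and Tsc22d1. The mean difference was 0.18 for Galr2 and 0.06, 0.05 and 0.01 for Csnk2b, Prkcb and Tsc22d1. Counted from the highest of 548 probes on all arrays, these means stood at places 175, 265, 268 and 306. Opposite shifts cancel in such a mean: for Prkcb the difference was 0.33 in the SS diet comparison and -0.35 on HS. On HS the forward array was the lower one in all 3 pairs for Galr2, Prkcb and Tsc22d1. Both orientations had the same sign in 11 of 12 pairs for Csnk2b, 10 for Galr2, and 9 each for Prkcb and Tsc22d1. For Csnk2b, Galr2 and Tsc22d1 the exceptions lay in the strain comparison on LS, and for Prkcb there and on HS.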
